A study of Homo sapiens with 3 samples.

Results

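IFITM1, IFITM2, IFITM3 and BST2 are 4 of the 18692 gene symbols listed in single-cell transcriptomes of the lung cancer line H460 and derivatives of it. They were chosen by symbol, as the interferon-induced transmembrane genes and tetherin, for a pattern already seen in these data. Their levels are therefore given as a description without a test. H460 is an established human large-cell lung carcinoma line. ldR-H460 and mdR-H460 are named in the labels as long-term and mid-term derivatives of it, from a reprogramming procedure that used a feeder layer and conditioned medium of irradiated human fibroblasts. The reprogramming agents and the length of each culture are not given in the sources used here. All cells of the 3 cultures descend from H460, which is 1 cell line, and each culture gave 1 library.

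IFITM proteins are small membrane proteins of the CD225 family. They lodge in the plasma membrane (mainly IFITM1) or in endosomes (mainly IFITM2 and IFITM3) and hinder the fusion of enveloped viruses with the cell. BST2, or tetherin, spans the membrane at one end, carries a GPI lipid anchor at the other, and holds budding virus particles on the cell surface. All of these genes are classical targets of interferon signalling, in which transcription factors bind the interferon-stimulated response element (ISRE) of a promoter, and several of them are expressed in carcinomas without added interferon.

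The promoters are shown because the ISRE is the element these genes are known to share. RefSeq promoters on GRCh38.p14 matched 3 of the 4 genes. The 160 bases printed run from 150 before to 10 after the RefSeq start, 5′ to 3′ on the strand of the gene. Capitals mark each ISRE core, taken as GAAA, any 2 bases and GAAA again, and searched on both strands.
IFITM1 (chr11:313890-314049, plus strand): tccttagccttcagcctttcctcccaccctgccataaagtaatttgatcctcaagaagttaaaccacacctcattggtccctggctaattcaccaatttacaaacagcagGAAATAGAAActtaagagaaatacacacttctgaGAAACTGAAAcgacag
IFITM3 (chr11:320851-321010, minus strand): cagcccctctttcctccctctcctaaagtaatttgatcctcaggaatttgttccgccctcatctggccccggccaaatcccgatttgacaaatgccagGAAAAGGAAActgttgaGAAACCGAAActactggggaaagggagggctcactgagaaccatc
BST2 (chr19:17405621-17405780, minus strand): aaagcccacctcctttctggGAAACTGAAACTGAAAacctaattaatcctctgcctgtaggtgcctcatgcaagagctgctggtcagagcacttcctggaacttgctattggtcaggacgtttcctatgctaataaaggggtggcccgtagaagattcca

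Each of the 3 promoters held 2 ISRE cores. In IFITM1 they began 40 and 6 bases before the start, and the nearer one ran across it. In IFITM3 they began 52 and 35 bases before the start. In BST2 they began 130 and 124 bases before it and shared 4 bases, which makes the single run of capitals. Among all 35114 RefSeq promoters of the same length, 1.92% held at least 1 such core and 0.137% held 2 or more. Among 49 promoters of 36 measured interferon-stimulated genes, 51.0% held at least 1 and 16.3% held 2 or more. Such a match describes letters and does not show binding. The windows held 1 CpG in IFITM1, 4 in IFITM3 and 2 in BST2, against a median of 8 over all promoters. Of all promoters, 10.0% held fewer than IFITM1, 36.4% fewer than IFITM3 and 21.6% fewer than BST2.

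The libraries were of like size. ldR-H460 held 4956 cells and 60468481 UMIs, mdR-H460 held 5151 cells and 66624830 UMIs, and H460 held 4531 cells and 66192074 UMIs. A UMI tags 1 captured RNA molecule near its 3′ end, so counts need no scaling by transcript length. The median cell had 12342.5 UMIs in ldR-H460, 11736 in mdR-H460 and 14685 in H460. Levels are in CPM, counts scaled for depth so that the genes of every library sum alike. Ranges in parentheses are 95% intervals for counting error only, and no difference has a replicate check. Cell barcodes occurring in more than 1 library numbered 36 between ldR-H460 and H460, 24 between ldR-H460 and mdR-H460, and 30 between mdR-H460 and H460. Mitochondrial transcripts took 6.80% of UMIs in ldR-H460, 5.21% in mdR-H460 and 4.80% in H460, the order of IFITM2 and IFITM3 below, and their part in those results was not tested. In summed levels, fewer cells expressing a gene and less RNA per cell cannot be told apart.

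The cultures carried epithelial keratins throughout. KRT8 stood at 494 CPM in ldR-H460, 625 in mdR-H460 and 459 in H460, and KRT18 was above 1000 CPM in every culture. KRT19, another keratin, differed widely, at 40.3 CPM in ldR-H460, 194 in mdR-H460 and 1696 in H460. CDH1 had no listed UMI. The epithelial adhesion gene EPCAM was near 0, at 0.132, 0.270 and 0.347 CPM in the same order, so that marker was nearly absent. Of 12 fibroblast markers, 5 had UMIs in ldR-H460, 5 in mdR-H460 and 7 in H460, and their summed level was 5.67, 4.17 and 15.3 CPM in the same order. THY1, PDGFRA, FAP and POSTN had no listed UMI in any culture. LUM had 0, 0.135 and 4.65 CPM in ldR-H460, mdR-H460 and H460, FBLN1 had 0.992, 1.11 and 4.11 CPM, and COL1A1 had 1.14, 2.16 and 2.73 CPM. These 3 matrix genes were highest in H460. COL3A1 had 3.18, 0.465 and 2.42 CPM in the same order and was 1.31-fold (1.06 to 1.63) higher in ldR-H460 than in H460. The leukocyte markers PTPRC, CD3E, MS4A1 and NKG7 and the endothelial markers VWF, CDH5 and CLDN5 also had none, and the summed endothelial level was 0, 0.525 and 0.0453 CPM in the same order. The summed leukocyte level was 1.69 CPM in ldR-H460, 1.61 in mdR-H460 and 4.23 in H460, nearly all of it from CD14 (1.69, 1.55 and 4.18 CPM). The summed fibroblast and leukocyte levels were both lower in both derivatives than in H460, with COL3A1 in ldR-H460 as an exception among the markers named. The part of other cells in the levels of the 4 genes was not tested.

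All 4 genes were lowest in H460. IFITM1 and BST2 were highest in mdR-H460, whereas IFITM2 and IFITM3 were highest in ldR-H460. A gene was counted when its ratio reached 2-fold and the richer of the 2 libraries held 1 CPM or more. By that count, 4 of the 4 genes were higher and 0 lower in ldR-H460 than in H460, where 5.43% of 12151 genes were higher and 10.9% lower. In mdR-H460, 3 of the 4 were higher and 0 lower than in H460, where 2.90% of 12002 genes were higher and 10.1% lower. Between the derivatives, IFITM2 was at least 2-fold higher in ldR-H460, as were 5.14% of 11799 genes, and IFITM1 at least 2-fold lower, as were 4.42%. With a minimum of 10 CPM, 2 of the 2 of these genes at that level were higher in ldR-H460 than in H460 (3.33% of 6556 genes higher, 7.98% lower), and 2 of 3 in mdR-H460 (1.83% of 6402 genes higher, 7.04% lower). Between ldR-H460 and mdR-H460 at that minimum, 1 of 3 was higher and 1 lower (2.57% and 3.09% of 6189 genes). The genes were picked for this behaviour, so nothing is read from these shares. Both comparisons with H460 use the same H460 library.

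**Figure D1:**
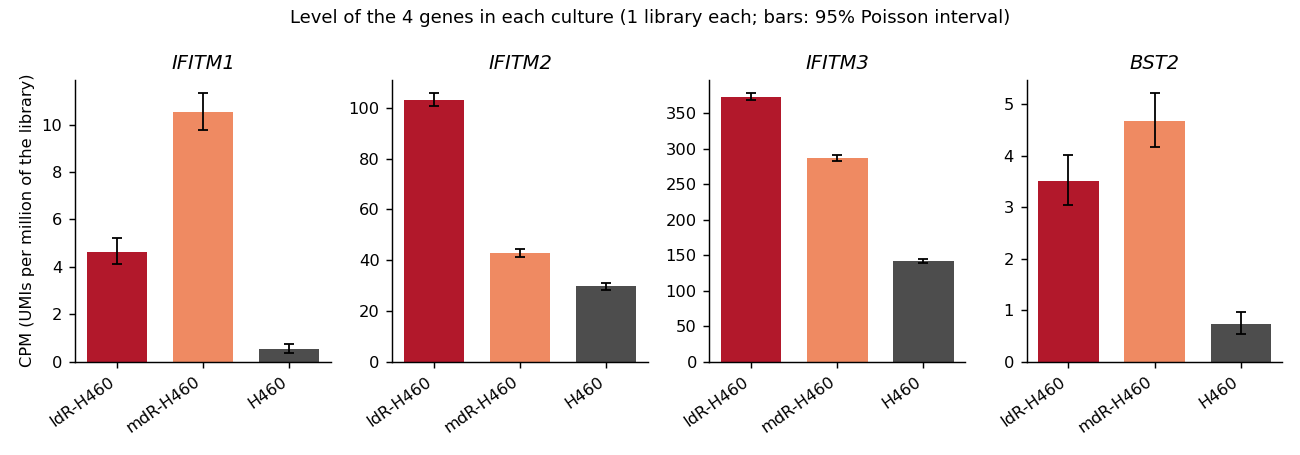
Level of IFITM1, IFITM2, IFITM3 and BST2 in CPM (vertical axes, a separate scale for each gene) in ldR-H460, mdR-H460 and H460, 1 library each, with 95% Poisson intervals as error bars. H460 is the lowest bar in every panel, mdR-H460 is the highest for IFITM1 (10.5 CPM) and BST2 (4.67 CPM), and ldR-H460 is the highest for IFITM2 (103 CPM) and IFITM3 (374 CPM).

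IFITM1, the member found mainly at the cell surface (GENCODE release 29 on GRCh38, chr11:313506-315272, plus strand), had 280 UMIs in ldR-H460, 701 in mdR-H460 and 36 in H460. These correspond to 4.63 CPM (4.10 to 5.21), 10.5 CPM (9.76 to 11.3) and 0.544 CPM (0.381 to 0.753) in the same order. The H460 level was the lowest and the intervals of the 3 cultures did not overlap. IFITM1 was 8.51-fold (6.00 to 12.4) higher in ldR-H460 and 19.3-fold (13.8 to 27.9) higher in mdR-H460 than in H460. It was 2.27-fold (1.98 to 2.62) lower in ldR-H460 than in mdR-H460. Of the symbols with a UMI, 51.4% lay below it in ldR-H460, 67.7% in mdR-H460 and 26.9% in H460.

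IFITM2, an endosomal member (chr11:307631-315272, plus strand), had 6240 UMIs in ldR-H460, 2841 in mdR-H460 and 1966 in H460. Its levels were 103 CPM (101 to 106) in ldR-H460, 42.6 CPM (41.1 to 44.2) in mdR-H460 and 29.7 CPM (28.4 to 31.0) in H460. ldR-H460 stood apart, while mdR-H460 was nearer to H460 than to ldR-H460, and no intervals overlapped. The ratio to H460 was 3.47 (3.30 to 3.66) in ldR-H460 and 1.44 (1.35 to 1.52) in mdR-H460, the smallest of the 4 genes. IFITM2 was 2.42-fold (2.31 to 2.53) higher in ldR-H460 than in mdR-H460.

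IFITM3, the endosomal member best known for limiting influenza virus entry (chr11:319669-327537, minus strand), was the most abundant of the 4, with 22597 UMIs in ldR-H460, 19161 in mdR-H460 and 9357 in H460. Its levels were 374 CPM (369 to 379) in ldR-H460, 288 CPM (284 to 292) in mdR-H460 and 141 CPM (139 to 144) in H460. Both derivatives lay well above H460 and close to each other, again with no overlap. IFITM3 was 2.64-fold (2.58 to 2.71) higher in ldR-H460 and 2.03-fold (1.98 to 2.09) higher in mdR-H460 than in H460, and 1.30-fold (1.27 to 1.32) higher in ldR-H460 than in mdR-H460. By level it ranked at place 322 of 16834 symbols with a UMI in ldR-H460, 446 of 17167 in mdR-H460 and 878 of 17414 in H460.

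BST2, which encodes tetherin (chr19:17402939-17405648, minus strand), was a low-level gene with 212 UMIs in ldR-H460, 311 in mdR-H460 and 48 in H460. Its levels were 3.51 CPM (3.05 to 4.01) in ldR-H460, 4.67 CPM (4.16 to 5.22) in mdR-H460 and 0.725 CPM (0.535 to 0.961) in H460. The intervals of the derivatives were close but did not overlap, and both lay above that of H460. BST2 was 4.83-fold (3.52 to 6.76) higher in ldR-H460 and 6.44-fold (4.74 to 8.92) higher in mdR-H460 than in H460. Between the derivatives it was 1.33-fold (1.11 to 1.59) lower in ldR-H460 than in mdR-H460.

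The mix of IFITM transcripts differed between the cultures. IFITM3 supplied 77.6% of the UMIs of the 3 IFITM genes in ldR-H460, 84.4% in mdR-H460 and 82.4% in H460. IFITM2 supplied 21.4%, 12.5% and 17.3% in the same order, and IFITM1 0.962%, 3.09% and 0.317%. The ratio of IFITM3 to IFITM2 UMIs was thus highest in mdR-H460, at 6.74, against 3.62 in ldR-H460 and 4.76 in H460. Summed over the 3 genes, the IFITM level was 482 CPM in ldR-H460, 341 in mdR-H460 and 172 in H460.

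Counts of the IFITM genes carry an uncertainty of assignment. The longest reading frames of IFITM2 and IFITM3 (399 and 402 bases) were identical at 93.3% of aligned bases. The last 300 bases of their transcripts, which the 3′ assay reads, were identical at 58.2%. IFITM1 and IFITM3 were identical at 67.3% in the reading frames and at 63.6% in the last 300 bases. Of the 50-base windows in the last 300 bases of IFITM1, 15.9% also occurred in IFITM3 and 7.57% in IFITM2. IFITM1 had far fewer UMIs than IFITM3 or IFITM2, and the effect of misassigned reads on its ratios was not tested. In GENCODE release 29, 1 IFITM2 transcript ends in an exon of IFITM1 (chr11:314922-315272, 351 bases), and the antisense gene AC136475.1 overlaps IFITM3. The annotation behind the counts, and how reads in shared stretches were assigned, are not given in the sources used here.

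To compare cells at equal depth, each cell was thinned to 5000 UMIs, which left out 8.78% of cells in ldR-H460, 24.7% in mdR-H460 and 15.0% in H460. IFITM3 was then detected in 80.1% (78.9 to 81.3) of ldR-H460 cells, 69.2% (67.7 to 70.7) of mdR-H460 cells and 44.6% (43.0 to 46.2) of H460 cells. Most derivative cells and a minority of H460 cells thus held at least 1 IFITM3 UMI at this depth. IFITM2 was detected in 38.5% (37.1 to 39.9) of ldR-H460, 17.2% (16.0 to 18.4) of mdR-H460 and 12.7% (11.6 to 13.8) of H460 cells. IFITM1 was detected in 2.59% (2.14 to 3.09), 5.67% (4.96 to 6.44) and 0.338% (0.180 to 0.577) of cells in the same order. BST2 was detected in 1.66% (1.31 to 2.08), 2.63% (2.15 to 3.18) and 0.416% (0.238 to 0.674). The order of cultures for each gene was that of its CPM, and only the BST2 intervals came close, without overlapping between the derivatives. Without thinning, the IFITM3 share was 90.7% in ldR-H460, 76.5% in mdR-H460 and 67.1% in H460, and the BST2 share was 3.93%, 5.38% and 0.993%. Free RNA can give a cell UMIs that it did not make. No second cell type that should lack the genes was present to set that level.

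**Figure D2:**
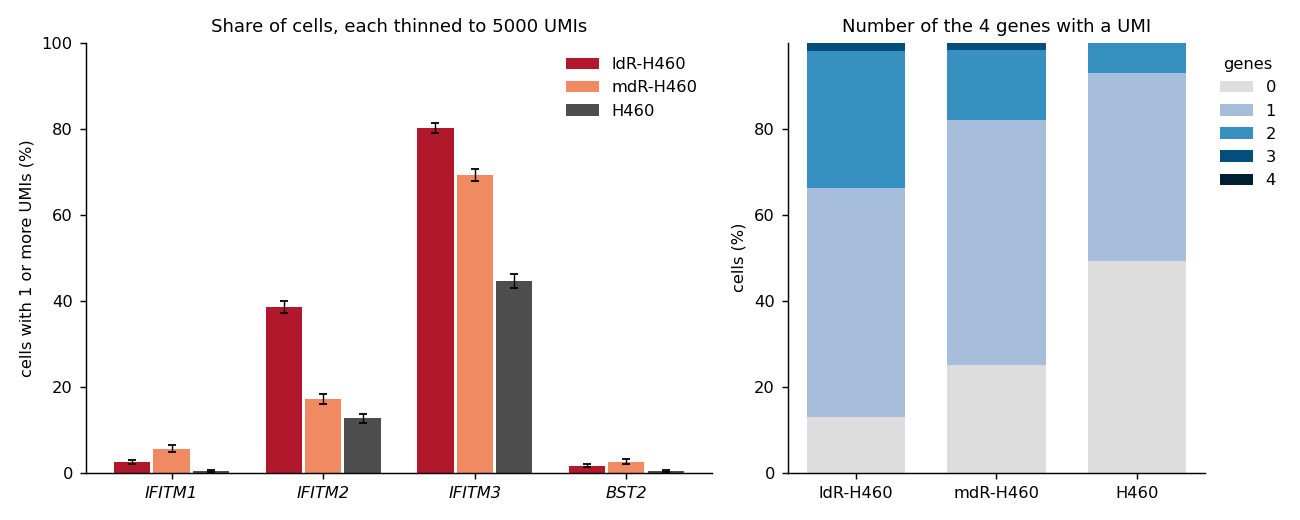
Left, share of cells (%) with 1 or more UMIs of each gene after thinning every cell to 5000 UMIs, in ldR-H460, mdR-H460 and H460, with 95% Clopper-Pearson intervals. Right, share of cells (%) by how many of the 4 genes had a UMI; cells with none made up 12.9% of ldR-H460, 25.1% of mdR-H460 and 49.3% of H460.

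Counting all 4 genes together, 12.9% of thinned ldR-H460 cells, 25.1% of mdR-H460 cells and 49.3% of H460 cells had no UMI of any of them. At least 2 genes at once were most often seen in ldR-H460, where 32.0% of cells had exactly 2, against 16.3% in mdR-H460 and 6.99% in H460. The product of the IFITM2 and IFITM3 shares alone gives 30.9% of cells in ldR-H460, 11.9% in mdR-H460 and 5.65% in H460. All 4 were seen together in 4 cells, all of ldR-H460. Without thinning, IFITM3 reached at most 29 UMIs in a ldR-H460 cell, 52 in a mdR-H460 cell and 36 in a H460 cell. IFITM1 then reached at most 4, 8 and 2 UMIs in the same order. After thinning, the highest IFITM3 count was 13 in ldR-H460, 16 in mdR-H460 and 23 in H460. At 5000 UMIs per cell, 7.12% of ldR-H460 cells, 4.25% of mdR-H460 cells and 0.831% of H460 cells held 5 or more IFITM3 UMIs. Without thinning, the 10% of cells richest in IFITM3 held 26.6% of its UMIs in ldR-H460, 36.1% in mdR-H460 and 36.8% in H460. After thinning, the variance of IFITM3 UMIs over their mean was 1.42 in ldR-H460, 1.58 in mdR-H460 and 1.73 in H460, where pure counting noise gives 1. IFITM1 and BST2 were too sparse for this ratio to be read.

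IFITM2 and IFITM3 were seen in the same cell slightly more often than the product of their shares. They were found together in 1438 thinned ldR-H460 cells, where that product gives 1395, in 505 mdR-H460 cells, where it gives 462, and in 268 H460 cells, where it gives 218. Their Pearson r over cells was 0.11 in ldR-H460 (4521 cells), 0.11 in mdR-H460 (3880 cells) and 0.12 in H460 (3850 cells). Both counts come from the same libraries, and in counts this sparse such an r is not read as a relation. For IFITM1 with BST2, 5 ldR-H460 cells, 7 mdR-H460 cells and 0 H460 cells held both. The product of their shares gives 1.94, 5.78 and 0.0540 cells in the same order.

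The cells of each library were also split into 4 equal groups by their UMIs. These groups do not match depth between cultures, since the median of the lowest was 6449 UMIs in ldR-H460, 1183 in mdR-H460 and 3587 in H460. IFITM3 ranged over 361 to 392 CPM in ldR-H460, 276 to 320 in mdR-H460 and 139 to 147 in H460. IFITM2 ranged over 82.8 to 127 CPM in ldR-H460, 38.6 to 54.0 in mdR-H460 and 29.1 to 30.5 in H460. For both genes the ranges of the 3 cultures did not overlap. IFITM1 ranged over 3.63 to 5.60, 9.76 to 12.7 and 0.403 to 0.717 CPM in the same order, likewise apart. BST2 ranged over 2.72 to 5.46 CPM in ldR-H460 and 4.31 to 5.45 in mdR-H460, which overlap, and 0.655 to 0.793 in H460.

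Within each culture, cells called G1 had the highest level of each gene, in 12 of 12 pairs of gene and culture. In 5 of the 12 the G1 interval lay above those of both S and G2/M. The same count was not made over all genes, so it is not read as particular to these 4. In ldR-H460, IFITM3 stood at 493 CPM (471 to 517) in G1 calls, 350 (338 to 362) in S and 359 (347 to 371) in G2/M. In mdR-H460 it stood at 330 (316 to 344), 255 (243 to 268) and 268 (256 to 280), and in H460 at 186 (176 to 197), 124 (116 to 133) and 101 (92.9 to 111). The G1 level was the highest in each culture, and every phase of the derivatives lay above every phase of H460. BST2 in ldR-H460 stood at 6.78 CPM (4.38 to 10.0) in G1 calls, 3.92 (2.77 to 5.37) in S and 1.85 (1.08 to 2.96) in G2/M. The share of G1 calls was 16.3% in ldR-H460, 32.7% in mdR-H460 and 35.8% in H460. What part these shares had in the differences between cultures was not tested. The part of free RNA in the phase calls was not tested.

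**Figure D3:**
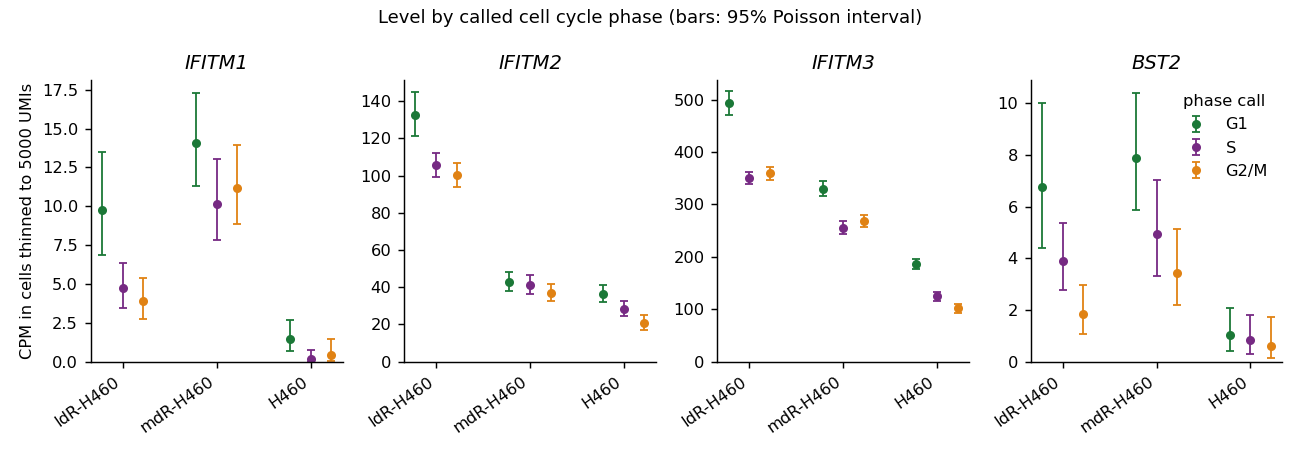
Level of each gene in CPM (vertical axes, a separate scale for each gene) in cells called G1, S or G2/M, each thinned to 5000 UMIs, in ldR-H460, mdR-H460 and H460, with 95% Poisson intervals. The G1 point is the highest of its culture in all 12 cases, for IFITM3 at 493 CPM in ldR-H460, 330 in mdR-H460 and 186 in H460.

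Among G1 calls alone, IFITM1 was closer between the derivatives, with a log2 ratio of ldR-H460 to mdR-H460 of -0.50, against -1.18 over all cells. The log2 ratio of IFITM3 in mdR-H460 over H460 was then 0.92, under 2-fold, against 1.02 over all cells. Other log2 ratios to H460 went both ways. BST2 had 3.07 among G1 calls against 2.69 in mdR-H460, and 2.71 against 2.27 in ldR-H460. In ldR-H460, IFITM1 had 3.41 against 3.09 and IFITM2 1.93 against 1.80, while IFITM3 stayed at 1.40. In mdR-H460, IFITM1 had 3.91 against 4.27 and IFITM2 0.46 against 0.52.

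Cells were also clustered within each library, leaving the 4 genes out of the clustering. IFITM3 ranged over 330 to 577 CPM in the 6 clusters of ldR-H460, 269 to 510 in the 4 clusters of mdR-H460 and 113 to 325 in the 6 clusters of H460. The lowest ldR-H460 cluster and the highest H460 cluster had overlapping intervals, and the ranges of mdR-H460 and H460 overlapped. IFITM2 ranged over 73.9 to 127 CPM in ldR-H460, 40.0 to 101 in mdR-H460 and 24.5 to 68.8 in H460. IFITM1 ranged over 0 to 6.90 CPM in ldR-H460, 8.99 to 20.0 in mdR-H460 and 0 to 2.79 in H460. The ldR-H460 and H460 ranges overlapped, and so did the counting intervals of the lowest mdR-H460 cluster and of sparse H460 clusters. The upper ends of the IFITM2 ranges rest on 27 UMIs in ldR-H460, 75 in mdR-H460 and 22 in H460. They came from the cluster of lowest depth in each library, as did the 0 CPM ends of IFITM1 in ldR-H460 and H460.

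The clusters richest in IFITM3 were small. In mdR-H460 it was a cluster of 139 cells (2.70%) with 510 CPM (467 to 555), led by LURAP1L-AS1, EGR4, SPRR2D, LINC00431, HSPA6 and EGR2. In H460 it was a cluster of 94 cells (2.07%) with 325 CPM (292 to 361), led by HSPA6, EGR2, EGR4, ARL14, LINC00431 and IRX4. Both were led by immediate early transcription factor genes of the EGR family and the heat shock gene HSPA6. In ldR-H460 it was a cluster of 218 cells (4.40%) with 577 CPM (550 to 603), led by DDIT4, HMMR, NEK2 and NUF2, most of which act in mitosis. The share of G1 calls was 0.463% in that ldR-H460 cluster, against 82.0% in the mdR-H460 cluster and 84.0% in the H460 cluster. The same small clusters also had the highest IFITM1 level of their culture, with intervals that overlapped those of other clusters, 20.0 CPM (12.4 to 30.6) in mdR-H460, 2.79 (0.574 to 8.14) in H460 and 6.90 (4.32 to 10.4) in ldR-H460. In H460 this rests on 3 UMIs. Each library also had an unnamed cluster with a median of 469 UMIs in ldR-H460, 477 in mdR-H460 and 418.5 in H460, of which that of mdR-H460 had 486 CPM of IFITM3 (437 to 539), within the interval of the richest cluster.

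**Figure D4:**
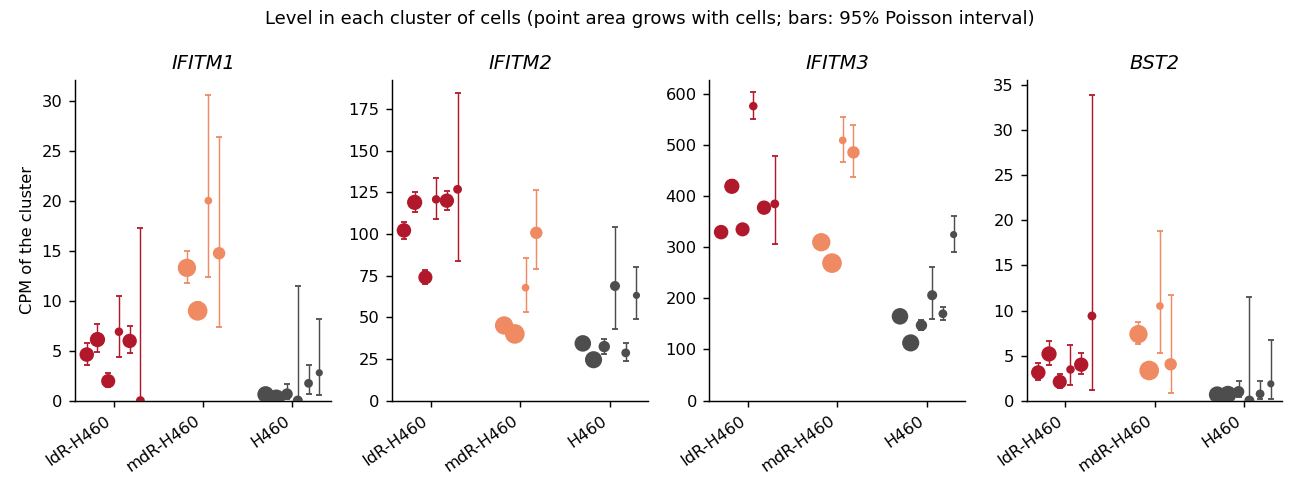
Level of each gene in CPM (vertical axes, a separate scale for each gene) in each cluster of cells of ldR-H460, mdR-H460 and H460; the area of a point grows with the number of cells and bars are 95% Poisson intervals. For IFITM3 the clusters lie at 330 to 577 CPM in ldR-H460, 269 to 510 in mdR-H460 and 113 to 325 in H460.

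Few other measured interferon-stimulated genes were higher in the derivatives at a 1.5-fold cut, which IFITM2 itself missed in mdR-H460 (1.44-fold). Of 56 listed genes of this kind, without the 4, 43 reached 1 CPM in some library and count as measured. Counted at 1.5-fold, 3 of the 43 (6.98%) were higher and 21 (48.8%) lower in ldR-H460 than in H460, where 11.6% and 22.1% of the 12261 genes measured by the same rule were. In mdR-H460, 1 of the 43 (2.33%) was higher and 21 (48.8%) were lower than in H460, where 6.66% and 22.2% of all genes were. The higher counts differ from these shares by few genes and are not read as a difference. Within 1.5-fold lay 19 of the 43 in ldR-H460 and 21 in mdR-H460, and these went both ways. Among them, ISG15, WARS and PML were slightly higher in both derivatives than in H460. The median log2 ratio of the list was -0.50 in ldR-H460 and -0.55 in mdR-H460, against -0.13 and -0.16 over all genes. The 3 genes higher in ldR-H460 were IFIT2, IFI44L and LY6E, of which IFI44L and LY6E were named after their values were seen. Between the derivatives the list was evenly split, with 6 genes higher and 6 lower in ldR-H460 than in mdR-H460, where 14.8% and 11.2% of all genes were.

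IFIT2, which binds RNA and restrains translation, was the only gene of the 43 counted as higher in both derivatives, at 1.77 CPM in ldR-H460, 0.765 in mdR-H460 and 0.378 in H460. It was 4.69-fold (3.01 to 7.56) higher in ldR-H460 and 2.03-fold (1.23 to 3.41) higher in mdR-H460 than in H460. ISG20, an RNA exonuclease, moved the other way, at 58.4 CPM in ldR-H460, 198 in mdR-H460 and 434 in H460. It was 7.43-fold (7.18 to 7.70) lower in ldR-H460 and 2.19-fold (2.15 to 2.24) lower in mdR-H460 than in H460. The RNA sensor genes DDX58 (RIG-I) and IFIH1 (MDA5) were counted as lower in ldR-H460, and IFIH1 also in mdR-H460. DDX58 had 0.810, 2.28 and 3.32 CPM and IFIH1 0.314, 0.495 and 1.22 CPM in ldR-H460, mdR-H460 and H460. Listed genes under 1 CPM in every library were not counted and went both ways. Among them, IFIT1 had 25, 25 and 9 UMIs and CMPK2 11, 14 and 45 in the same order, both named after their values were seen.

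**Figure D5:**
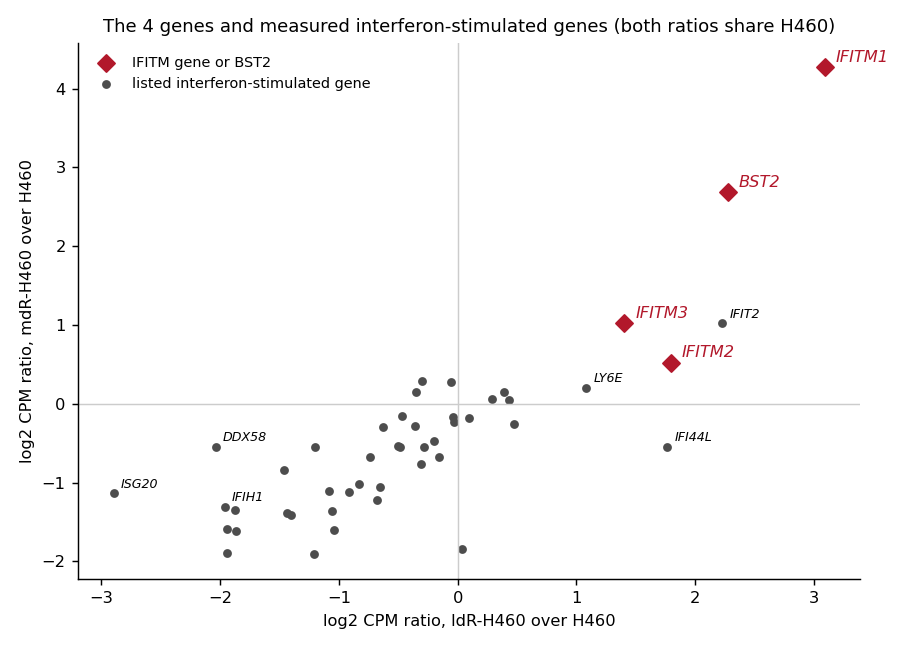
Each point is a gene, placed by its log2 CPM ratio of ldR-H460 over H460 (horizontal) and of mdR-H460 over H460 (vertical), which share the H460 library; red diamonds are the 4 genes and grey points the 43 measured interferon-stimulated genes. The 4 genes lie in the upper right quadrant, from 1.40 to 3.09 across and 0.52 to 4.27 up, while the median of the grey points is -0.50 across and -0.55 up.

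Interferons themselves were almost undetected. Of 9 interferon genes listed for the search, 8 had no listed UMI in any culture, among them IFNB1, IFNL1 and IFNG, and IFNE had 4 UMIs in mdR-H460 alone. A symbol not listed in a table may still have had a few UMIs. Among 6 measured genes that induce interferon, 1 was at least 1.5-fold higher and 3 lower in ldR-H460 than in H460, and 0 were higher and 2 lower in mdR-H460. Of all genes, 11.6% were higher and 22.1% lower in ldR-H460, and 6.66% and 22.2% in mdR-H460, and 6 genes are too few to set beside these shares. The DNA sensor gene MB21D1 (cGAS) had 12 UMIs in ldR-H460, 3 in mdR-H460 and 472 in H460. It was 35.9-fold (20.4 to 70.0) lower in ldR-H460 and 158-fold (53.9 to 771) lower in mdR-H460 than in H460. Its adaptor TMEM173 (STING) was 2.90-fold (1.93 to 4.44) higher in ldR-H460, at 1.49 CPM against 0.514 in H460, and stood at 0.465 CPM in mdR-H460. TICAM1, an adaptor of Toll-like receptor signalling, had 2.12 CPM in ldR-H460, 3.53 in mdR-H460 and 12.4 in H460, and the kinase gene IKBKE 3.34, 4.20 and 6.03 CPM in the same order.

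Of 20 measured receptor and signalling genes that act between interferon and the ISRE, 1 was at least 1.5-fold higher and 6 lower in ldR-H460 than in H460, and 1 was higher and 5 lower in mdR-H460. Of all genes, 11.6% were higher and 22.1% lower in ldR-H460, and 6.66% and 22.2% in mdR-H460, so the counts lie near these shares. The median log2 ratio was -0.35 in both, against -0.13 in ldR-H460 and -0.16 in mdR-H460 over all genes. IFNGR1, a chain of the interferon gamma receptor, had 10.5 CPM in ldR-H460, 21.4 in mdR-H460 and 10.1 in H460, and was 2.12-fold (1.93 to 2.33) higher in mdR-H460 than in H460. The feedback inhibitor SOCS3 had 7.95, 9.32 and 29.5 CPM in ldR-H460, mdR-H460 and H460, and was counted as lower in both derivatives. SOCS1, another such inhibitor, had 15, 6 and 72 UMIs in the same order. IRF7, a transcription factor of the interferon response, was 3.60-fold (2.46 to 5.41) lower in ldR-H460, at 0.562 CPM against 2.02 in H460, and stood at 1.52 CPM in mdR-H460.

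Of 14 measured genes of other antiviral restriction factors, 1 (7.14%) was at least 1.5-fold higher and 5 (35.7%) lower than in H460 in each derivative. Of all genes, 11.6% were higher and 22.1% lower in ldR-H460, and 6.66% and 22.2% in mdR-H460. The gene higher in both was MARCH8, named after its values were seen, which encodes a ubiquitin ligase that lowers viral envelope proteins, with 1.54 CPM in ldR-H460, 1.74 in mdR-H460 and 1.01 in H460. SLFN11, which cleaves transfer RNAs, had 9 UMIs in ldR-H460, 0 in mdR-H460 and 321 in H460. It was 32.6-fold (17.0 to 71.9) lower in ldR-H460 than in H460. For mdR-H460 a floor of 3 UMIs stood in for the 0, which puts the H460 level of SLFN11 at 107.7 times that floor. This value depends on the chosen floor and is not a bound, and no counting interval is given for it. Its relative SLFN5 had 9.23, 7.41 and 23.0 CPM in ldR-H460, mdR-H460 and H460, the ubiquitin ligase gene MARCH1 1.72, 0.315 and 3.72 CPM, and CNP 15.9, 18.0 and 34.0 CPM. These 4 genes were lower in both derivatives than in H460.

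The wider CD225 family did not move as a block. IFITM10 had 0.496 CPM in ldR-H460, 0.976 in mdR-H460 and 1.87 in H460, and was 3.78-fold (2.52 to 5.83) lower in ldR-H460 and 1.92-fold (1.41 to 2.63) lower in mdR-H460 than in H460. Its direction was thus opposite to that of IFITM1, IFITM2 and IFITM3. PRRT1 had 3.77 CPM in ldR-H460, 1.65 in mdR-H460 and 2.42 in H460, and TMEM91 0.794, 1.11 and 0.922 CPM. IFITM5 had no listed UMI.

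Of 13 measured modifiers and partners of IFITM proteins, 0 were at least 1.5-fold higher than in H460 in either derivative, while 2 (15.4%) were lower in ldR-H460 and 3 (23.1%) in mdR-H460, where 22.1% and 22.2% of all genes were. The palmitoyltransferase gene ZDHHC7 had 7.56 CPM in ldR-H460, 6.39 in mdR-H460 and 10.5 in H460. ZMPSTE24, a protease known to work with IFITM proteins, had 18.5, 27.1 and 30.5 CPM in the same order. EMP2 had 52.9, 53.8 and 83.3 CPM, and CAV1, which encodes a caveolar coat protein, 115, 93.6 and 151 CPM. Of 13 measured genes for GPI anchoring and for the trafficking of BST2, 0 were higher and 1 (7.69%) was lower in each derivative than in H460, where 22.1% (ldR-H460) and 22.2% (mdR-H460) of all genes were lower. The gene lower in ldR-H460 was PIGT, a subunit of the GPI transamidase, with 31.9 CPM in ldR-H460, 53.9 in mdR-H460 and 60.3 in H460. The gene lower in mdR-H460 was PGAP1, which remodels the GPI anchor, with 4.66, 3.60 and 6.59 CPM in the same order. PGAP2 (9.84, 10.6 and 14.2 CPM) and BTRC (4.22, 3.90 and 5.50 CPM) lay within 1.5-fold of H460 in both derivatives.

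Within 200 kb of the IFITM cluster 10 other genes were measured, of which 0 were at least 1.5-fold higher and 2 lower in ldR-H460 than in H460, and 0 higher and 1 lower in mdR-H460. With 11.6% of all genes higher in ldR-H460 and 6.66% in mdR-H460, a count of 0 among 10 is not read as a difference. Of all genes, 22.1% were lower in ldR-H460 and 22.2% in mdR-H460, and the counts of lower genes are not read as a difference either. Their log2 ratios ran from -0.76 to 0.12 in ldR-H460 and from -0.83 to 0.39 in mdR-H460. The genes counted as lower were B4GALNT4 in both derivatives and RIC8A in ldR-H460. Within 200 kb of BST2, 13 other genes were measured, of which 0 were higher and 1 lower in ldR-H460, and 2 higher (ABHD8 and ANKLE1) and 1 lower in mdR-H460. Beside the same shares of all genes, these counts are likewise not read as a difference. ABHD8 had 1.41 CPM in ldR-H460, 4.77 in mdR-H460 and 2.12 in H460, and the adjoining gene MVB12A 38.1, 37.0 and 40.5 CPM. BISPR, a noncoding RNA known as a positive regulator of BST2 that starts beside it on the other strand, had 17 UMIs in ldR-H460, 20 in mdR-H460 and 6 in H460. Its ratio to H460 was 3.10 in ldR-H460 and 3.31 in mdR-H460, at a level too low to count as measured.

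The genes with the most similar pair of ratios to H460 were sought among genes at 10 CPM or more in some library, 6640 for each IFITM gene and 6641 for BST2. For IFITM3 the nearest was TMSB4X, which encodes the actin monomer binding protein thymosin beta 4, with 7441 CPM in ldR-H460, 5734 in mdR-H460 and 2819 in H460. Its log2 ratios, 1.40 in ldR-H460 and 1.02 in mdR-H460, were the same as those of IFITM3 at 2 decimals, and 72 genes lay within a distance of 0.5 on the log2 scale. CENPA, VWA5A, SAPCD2 and MAPK12 followed. For IFITM2 the nearest were OGFRL1, ZNF674-AS1, CRYZ, PRTG and ST3GAL5, with OGFRL1 at 97.8 CPM in ldR-H460, 36.5 in mdR-H460 and 27.0 in H460. For IFITM1 they were FAM83A, SAMD11, RP11-10A14.5, CPLX2 and the cytokine gene IL18, with FAM83A at 15.9, 32.4 and 1.83 CPM in the same order. For BST2 they were the NADPH oxidase gene NOX5, the complement gene C3, MYEOV, TMEM52 and TC2N, with NOX5 at 10.1, 12.6 and 2.05 CPM. Within a distance of 0.5 lay 40 genes for IFITM2, but only 2 for IFITM1 (FAM83A and SAMD11) and 2 for BST2 (NOX5 and C3). The other genes named for IFITM1 and BST2 lay farther off. Likeness here rests on 3 libraries, 1 of them in both ratios.

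Across thinned cells within a library, the highest mean Pearson r over the 3 libraries was small for every gene of the 4. For IFITM3 it was 0.14 with GAPDH and 0.13 with PGK1, both glycolytic enzyme genes, and for IFITM2 0.11 with IFITM3. IFITM1 reached 0.08 with the ceruloplasmin gene CP, and BST2 0.05 with S100A9. Among 6589 genes screened in cells that share library and depth, these values are given as a description only.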

How the data were processed

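The values deposited by the authors are UMI counts, not normalized, with a row for each gene symbol and a column for each cell that passed their quality filter, per the labels. Libraries were made with the Chromium 3′ version 2 chemistry. The submitters' processing notes name Cell Ranger 3.0.2, Seurat 3.0 and GRCh38 without roles. Symbols that a table does not list were set to 0. No column was without a sample (0).

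UMIs were summed per library and divided by its total (CPM). Intervals are exact 95% Poisson, binomial-based (ratios) or Clopper-Pearson (shares). With 1 library per culture no p-value was computed. A floor of 3 UMIs stood for 0. Cells were thinned at random (seed 1) to 5000 UMIs for shares, phases (scanpy 1.11.5) and correlations of log2(UMIs + 1). Clusters came from each library with 2000 variable genes, 30 components, 15 neighbours and Leiden resolution 0.5. Doublets were not called. Neighbours are genes within 200 kb in GENCODE release 29. The ratio and its interval were tried only on simulated Poisson counts, the model the intervals assume, with known ratios in genes at 10 CPM or more. IFITM1 and BST2 in H460 lie below that level, and variation between cultures was not simulated.

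The 4 genes and all lists were chosen with earlier results of these data known. From each list up to 4 measured genes with the largest ratio in either derivative against H460 are named, with the 5 nearest in ratios, the 3 most correlated and the neighbours. The lists cover interferon-stimulated genes, receptors and signalling, interferon ligands and inducers, other restriction factors, the CD225 family, IFITM modifiers, GPI anchoring and BST2 trafficking, and markers of fibroblasts, leukocytes, endothelium and epithelial carcinoma. Alternatives were edgeR 4.0.16 TMM and DESeq2 1.42.0 size factors on the summed counts, other totals and cell weights, thinning, cell filters and G1 calls.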

Additional observations from a re-analysis of the deposited data

How the results depend on the processing

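No paired analysis was possible because each culture gave 1 library. All 4 genes kept their direction in each pair of cultures under the 8 alternatives of scaling, weighting and cell choice. The number of the 4 genes at least 2-fold apart, ldR-H460 against mdR-H460, was 1 with G1 calls alone, against 2 (IFITM1 then had a log2 ratio of -0.50). IFITM3 in mdR-H460 over H460 fell under 2-fold with G1 calls alone (log2 ratio 0.92) and without cells of 4000 or more genes (0.97). TMM factors moved the median log2 ratio of all genes at 10 CPM for mdR-H460 over H460 to 0.08, and DESeq2 factors to 0.08, against -0.10. The median of the interferon-stimulated list in that pair was then -0.37 with TMM and -0.38 with DESeq2 factors, against -0.55. The shares of cells depend on depth by construction. Thinned to 2500 UMIs, IFITM3 was detected in 57.4% of ldR-H460, 46.0% of mdR-H460 and 26.1% of H460 cells, and each gene kept its order of cultures. IFITM1 and BST2 in H460 rest on 36 and 48 UMIs, which limits the precision of their ratios. Over all genes, those at least 2-fold apart at 1 CPM, against 10 CPM, numbered 1983 against 741 for ldR-H460 and H460, 1566 against 568 for mdR-H460 and H460, and 1129 against 350 for ldR-H460 and mdR-H460.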
